A study of Mus musculus with 2 samples.

Results

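A window on mouse chromosome 13, from 61 to 69 Mb on the mm9 build, held 337 of the 41561 regions in the deposited list of H3K4me3 gains in Mll-PTD cells. It was chosen by position: a listed region belongs to the window if its start lies there. The list itself was made by comparing both libraries, so each member had to reach 4-fold more tags in Mll-PTD than in WT. Ratios are therefore given as a description of the members and carry no test. The study has 1 H3K4me3 chromatin immunoprecipitation (ChIP) library per genotype, both from C57BL/6 bone marrow and both made with the antibody Abcam ab8580. The WT library came from wild-type mice and the Mll-PTD library from mice heterozygous for a knock-in of the Mll partial tandem duplication. No other treatment is named, and age and the number of mice per library are not given in the sources used here. The source is labelled LSK, a name for marrow cells that lack lineage markers and carry Sca1 and KIT, among them the stem cells of the blood. They were taken through CD117 beads and then Sca1 beads, and the list holds no expression values against which the label could be checked.

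H3K4me3, trimethylation of lysine 4 on histone H3, marks active and poised promoters. Mll, also called Kmt2a, is one of the enzymes that write it, and its partial tandem duplication, an in-frame repeat of part of the protein, is found in acute myeloid leukaemia. Mouse chromosome 13 is known for clusters of KRAB zinc finger genes, which arose by tandem duplication. Their proteins bind DNA through zinc finger arrays and, through the KRAB domain, recruit the corepressor TRIM28 to silence transposable elements and some genes.

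Which genes lie under the regions was not analysed here, because no annotation of the mm9 build was used. In the RefSeq table of another build, GRCm38.p6, 94 protein-coding genes lie in a row from Ctla2a to Adcy2, and 31 of them carry a Zfp or Rsl symbol. Such a symbol stands for a zinc finger gene or, for Rsl, for a regulator of sex-limited liver genes, and does not itself show a KRAB domain. Between Ptdss1, which makes phosphatidylserine, and Mtrr, which keeps methionine synthase active, 25 of 27 genes carry one, Rsl1, Zfp759 and Zfp85 among them. The same row holds the placental cathepsins Ctsj, Ctsq and Ctsr, the gluconeogenesis genes Fbp1 and Fbp2, the DNA repair gene Fancc and the Hedgehog receptor Ptch1. These names give the order of genes only. They were not placed on the regions, and whether listed regions lie at zinc finger genes was not tested.

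The regions of the window were crowded into 3 stretches. The window held 17.7% of the 1904 regions on chromosome 13, at 42.1 per Mb against 14.3 per Mb over the rest of the chromosome. Of its 1-Mb bins, the one from 66 Mb held 106 regions, the one from 65 Mb held 73, the one from 62 Mb held 55 and the one from 68 Mb held 52. These were the 4 fullest bins of the chromosome, and the fullest outside the window, from 12 Mb, held 35. The other bins of the window lay near the chromosome's median of 13 regions per bin. The bin from 61 Mb held 19 regions, that from 67 Mb held 12, that from 64 Mb held 11 and that from 63 Mb held 9. The crowding thus stood in separate blocks.

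**Figure D1:**
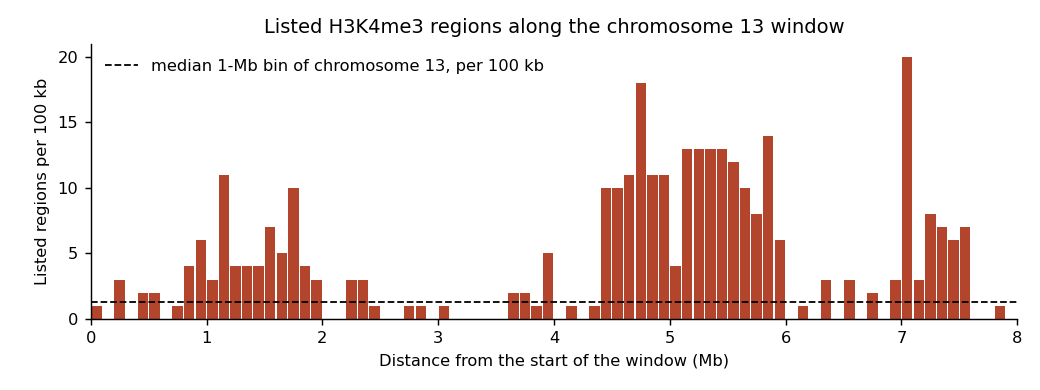
Listed regions per 100 kb (bars) against the distance from the start of the window in Mb, with the median 1-Mb bin of chromosome 13 as a dashed line. Regions pile up in 3 blocks, the fullest 100-kb bin holds 20, and 23 of 80 bins hold none.

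Where a gap of 100 kb or more ends a stretch, 3 stretches held at least 10 regions each, a limit chosen after seeing the data. The first ran from 61742210 to 62981960 with 66 regions, the second from 65361803 to 66971295 with 178 and the third from 67917440 to 68594892 with 54. The second was the most crowded, with 110.6 regions per Mb of its span, followed by the third with 79.7 and the first with 53.2. Together they took 298 of the 337 members. Stretches were not counted in the rest of chromosome 13, where the upper quartile of the gaps, 93804 bases, also lay under 100 kb. Of 80 bins of 100 kb, 16 held at least 10 regions and 200 regions between them. The median gap between neighbours was 7752.5 bases in the window and 34418 bases in the rest of chromosome 13. Gaps under 5 kb were 40.8% of those in the window and 21.5% of those in the rest.

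The members held 13087.4 Mll-PTD tags, after scaling to the WT library, against 1425 WT tags. The ratio of these sums was 9.18 (exact 95% interval 8.70 to 9.70), and it was 7.60 (7.43 to 7.76) in the rest of chromosome 13 and 7.70 (7.67 to 7.73) over the whole list. All such intervals cover counting error only. Listed sequence in the window held 50.0 scaled Mll-PTD tags per kb and 5.44 WT tags per kb, where the rest of the chromosome held 54.1 and 7.12. The window was thus a little lower than the rest of the chromosome in Mll-PTD density. Relative to each library's level, it was lower by a wider margin in WT density. Tags spread evenly over the caller's genome size would stand at 21.8 per kb. The 4-fold limit of the list holds down the WT level, here as elsewhere.

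Single members were small. The median member held 29.3 scaled Mll-PTD tags (quartiles 24.8 and 41.3, range 19.5 to 229.6) and 3 WT tags (quartiles 1 and 6, range 0 to 37). Over the 266 members that had any WT tag, ratios had a median of 8.04 (quartiles 5.70 and 13.8), against 6.63 (5.04 and 10) in the 1366 such regions of the rest of chromosome 13. At least 8-fold was reached by 187 of 337 members (55.5%, exact interval 50.0% to 60.9%), with members lacking a WT tag set against 3 tags. The background over the whole list was 43.3%, and the rest of chromosome 13 stood at 41.5% (39.1% to 44.0%). Intervals of shares, here and below, are binomial over regions and treat neighbouring regions as independent, which was not tested. In the authors' deposited table, where 0 WT tags count as 0.5, the fold was at least 8 for 207 members, or 61.4%, against 47% of the whole list. At the lower end, 18 members lay between 4-fold and 4.5-fold, just inside the limit of the list. Regions just under 4-fold were not analysed here.

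**Figure D2:**
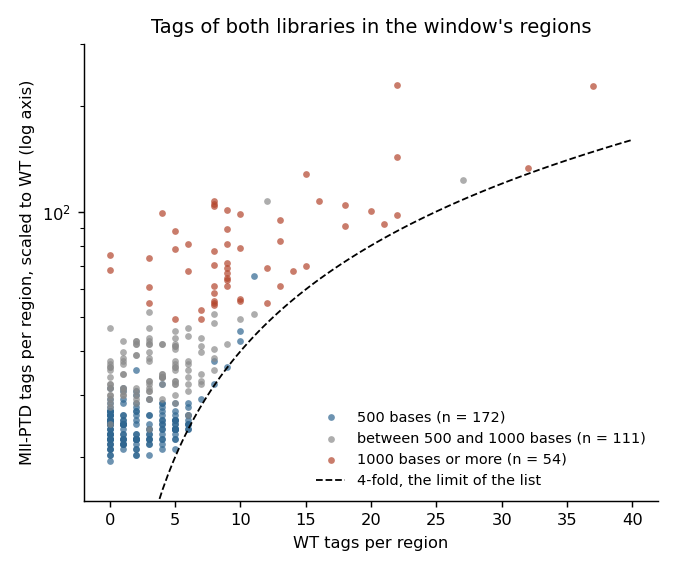
Scaled Mll-PTD tags per region (log axis) against WT tags per region for all 337 members, coloured by length, with the 4-fold limit of the list as a dashed line. Regions of 500 bases crowd at 0 to 6 WT tags, and members of at least 1000 bases reach 37 WT tags.

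Relative to its level, WT density differed more between the bins of the window than Mll-PTD density. The caller's threshold of 30 tags for a peak of 500 bases holds the Mll-PTD level up. The contrast is therefore in part set by the list. Summed over the members of a 1-Mb bin, WT stood at 6.29 tags per kb in the bin from 61 Mb, 6.59 in that from 62 Mb, 5.93 in that from 63 Mb and 6.36 in that from 64 Mb. It stood at 5.36 in the bin from 65 Mb, 5.10 in that from 66 Mb, 5.49 in that from 67 Mb and 4.26 in that from 68 Mb. The exact Poisson interval of the bin from 68 Mb, 3.65 to 4.95, lies below that of the bin from 62 Mb, 5.87 to 7.38. The bins from 63 Mb, 64 Mb and 67 Mb rest on 60, 63 and 41 WT tags, and their intervals overlap each other. Scaled Mll-PTD tags ran from 45.6 per kb in the bin from 64 Mb to 55.0 in that from 62 Mb, and the bin from 68 Mb held 48.9.

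The ratio of summed tags was highest in the bin from 68 Mb, at 11.5 (9.84 to 13.5), and lowest in that from 64 Mb, at 7.16 (5.51 to 9.43). The well filled bin from 62 Mb stood at 8.34 (7.41 to 9.40), below the counting interval of the bin from 68 Mb. The bins from 65 Mb and 66 Mb lay between, at 9.05 (8.06 to 10.2) and 9.63 (8.68 to 10.7), and their intervals overlap both. The sparse bins from 63 Mb and 67 Mb, with 9 and 12 regions, had intervals too wide to be placed, from 6.54 to 11.3 and from 6.73 to 13.1.

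**Figure D3:**
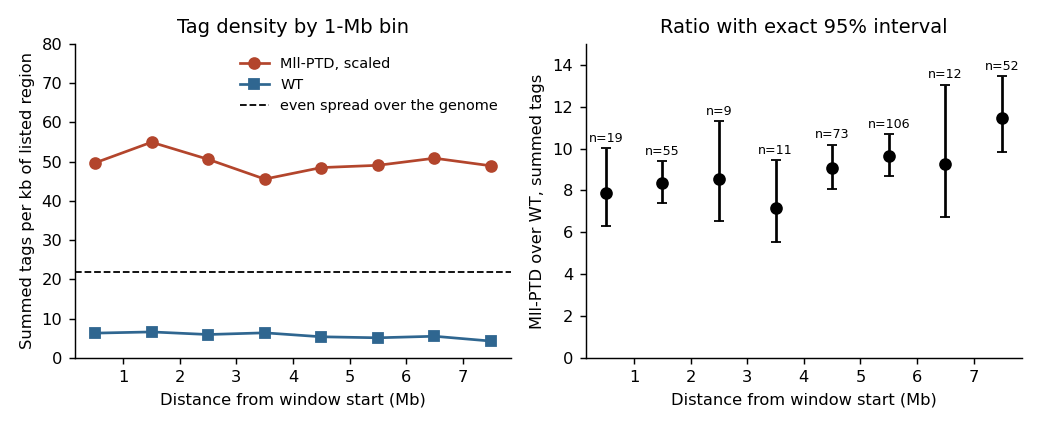
Left, summed tags per kb of listed region for both libraries by 1-Mb bin, with the even genome level dashed; right, the ratio of summed tags with its exact 95% counting interval and the number of regions. Mll-PTD lies between 45.6 and 55.0 per kb, a level held up by the caller's tag threshold. WT goes from 6.29 in the first bin to 4.26 in the last, where the ratio is 11.5.

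No WT tag was found in 71 members (21.1%, exact interval 16.8% to 25.8%). The share was 12.8% (11.2% to 14.6%) in the rest of chromosome 13 and 13.5% over the whole list. A count of 0 allows up to 3 WT tags in each such region. The bin from 68 Mb held 19 of these among its 52 regions (36.5%, 23.6% to 51.0%), and the bin from 62 Mb held 8 of 55 (14.5%, 6.50% to 26.7%). Without the bin from 68 Mb the share in the window was 18.2%. The state of the nearest neighbour was alike for both kinds of member. Of 55 members without WT tags and with a listed neighbour within 10 kb, 11 (20%, 10.4% to 33.0%) had a nearest neighbour that also lacked WT tags. Beside members with a WT tag the share was 42 of 209 (20.1%, 14.9% to 26.2%).

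The higher share without WT tags stood in the shortest regions. Among members of 500 bases, the caller's minimum, 52 of 172 had no WT tag (30.2%, 23.5% to 37.7%), against 15.8% (13.4% to 18.3%) of 894 in the rest of chromosome 13. Among members between 500 and 1000 bases it was 17 of 111 (15.3%, 9.18% to 23.4%) against 10.7% (7.79% to 14.1%). Among members of at least 1000 bases it was 2 of 54 (3.70%, 0.452% to 12.8%) against 6.45% (3.87% to 10%). The ratio of summed tags followed the same order. It was 10.5 (9.53 to 11.7) in members of 500 bases, against 7.59 (7.31 to 7.87) in the rest of the chromosome, and 9.90 (8.96 to 10.9) against 7.79 (7.44 to 8.16) between 500 and 1000 bases. At 1000 bases or more it was 7.72 (7.10 to 8.42) against 7.50 (7.26 to 7.75), and these intervals overlap.

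**Figure D4:**
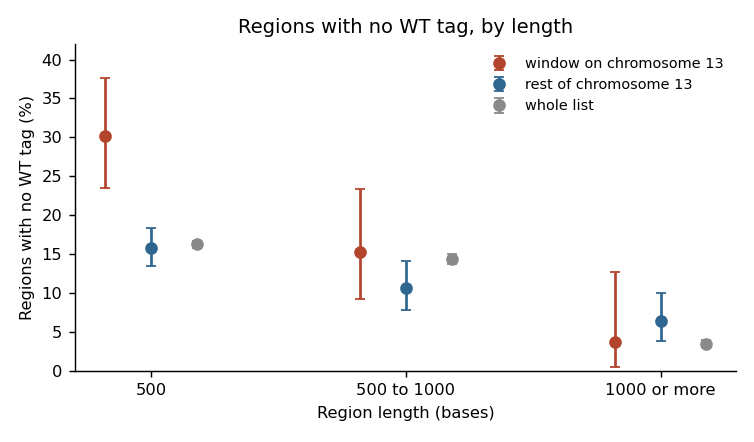
Share of regions with no WT tag, in percent with exact 95% intervals, for 3 length classes in the window, the rest of chromosome 13 and the whole list. The window stands at 30.2% among regions of 500 bases, where the rest of the chromosome stands at 15.8%, and at 3.70% among regions of at least 1000 bases.

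The window was made mostly of short regions, as was the rest of chromosome 13. Members of 500 bases were 51.0% of all (45.6% to 56.5%), those of at least 1000 bases 16.0% (12.3% to 20.4%), and 3 members reached 3000 bases. In the rest of chromosome 13 these were 57.1%, 17.8% and 2.36% of regions, against 0.890% for the last class in the window. The tallest peak scored at least 40 on the caller's scale in 41 members (12.2%, 8.87% to 16.1%), against 16.4% (14.6% to 18.3%) in the rest. The clonal fold, a caller's score of how far tags pile on the same positions, had a median of 0.77 in the window and 0.72 in the rest. It was 0.81 in members with no WT tag and 0.75 in the others, and 6 members exceeded 1. Whether piled tags have a part in the window's ratios was not tested.

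Of the 8 members with the most tags, 5 lay in the first stretch. The region from 62184991 to 62189387 held 229.6 scaled Mll-PTD tags against 22 WT tags, a ratio of 10.4 (6.77 to 16.9). The longest member, from 62828344 to 62832974 with 4630 bases, held almost as many, 228.1 against 37, with a ratio of 6.16 (4.37 to 8.92). These stood apart from the others, since the next member had 143.3. That one, from 65781879 to 65784746, had 22 WT tags and a ratio of 6.51 (4.18 to 10.6). The region from 64983327 to 64986485 had 128.3 against 15, a ratio of 8.55 (5.04 to 15.6). The fifth longest, from 62762088 to 62764787, had 107.3 against 8, a ratio of 13.4 (6.63 to 31.7). The sixth longest, from 63243545 to 63245970, had 132.8 against 32, a ratio of 4.15 (2.84 to 6.25), and its interval lies below those of the regions from 62184991 and 62762088. Long members thus had ratios on both sides of the window's 9.18.

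A pair of members was short and dense instead. The region from 62886955 to 62887581 put 123 scaled Mll-PTD tags and 27 WT tags into 626 bases, or 196.5 and 43.1 per kb, with a ratio of 4.56 (3.02 to 7.13). The region from 62786206 to 62786832, also 626 bases long, held 107.3 against 12, or 171.4 and 19.2 per kb, with a ratio of 8.94 (4.96 to 17.7). Their tallest peaks scored 88 and 84, the highest of the window. The first of them exceeded the even genome level in WT as well, which the 1425 WT tags of all members together, at 5.44 per kb, did not. The region from 62725424 to 62725924 lay just above that level too, with 11 WT tags in 500 bases, or 22 per kb. It held 130.6 scaled Mll-PTD tags per kb.

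The highest ratios over a counted WT tag rested on 1 WT tag each. Among members at or above the window's median of Mll-PTD tags, the first 8 lay on 8 sites from 61817489 to 68570327 and ran from 31.5 to 42.8. The highest, from 64931418 to 64932341, held 42.8 scaled tags against 1, with an interval from 7.37 to 1719. The next, from 66970659 to 66971295, held 39.8 against 1, with an interval from 6.84 to 1600. Each of the 8 intervals reaches down to values between 5.36 and 7.37, so at this depth their order cannot be told from counting error.

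Of the members without a WT tag, 2 were long. The region from 66603350 to 66605254 had 75 scaled Mll-PTD tags (100 before scaling) over 1904 bases and was at least 25-fold higher than WT, with 0 WT tags set against 3. The region from 67154923 to 67156591, in the sparse bin from 67 Mb, had 68.3 over 1668 bases and was at least 22.8-fold higher. The next by tags, from 68057315 to 68058084, held 46.5 tags and was higher by at least 15.5-fold. No error of the Mll-PTD tags enters these bounds. With it, the exact 95% intervals had lower limits of 19.97, 18.1 and 12.2 for the 3 regions. The first of these stood at 39.4 Mll-PTD tags per kb, under the window's 50.0, so its bound comes from its length as well as its tags.

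The lowest ratios stood close to the limit of the list. The region from 66518334 to 66518834 had 36 scaled Mll-PTD tags against 9, a ratio of 4 (1.94 to 9.28). The region from 66470797 to 66471297 had 32.3 against 8, a ratio of 4.04 (1.88 to 9.93). Among members of at least 1000 bases, that from 63243545, given above with a ratio of 4.15, was the lowest. High and low ratios were thus found in the same bin from 66 Mb. At the edges of the window the values were ordinary. The first member, from 61050852 to 61051488, had 29.3 against 3, and the region before it, outside the window from 60985627 to 60986127, had 27.8 against 4. The last member, from 68842954 to 68843454, had 24 against 5, and the next listed region, from 69179225 to 69179725, had 25.5 against 5.

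In the fullest 100-kb bin, some regions returned at near-equal distances, a pattern noticed after the values were seen. Its 20 regions ran from 68018224 to 68097806. Of their 190 pairs, 8 had starts 15500 to 16000 bases apart, the fullest step of 500 bases. Another step held 6 pairs, and the median of the other steps up to 30 kb was 2. The bin held 3 regions of at least 2000 bases. They started at 68053090, 68068804 and 68084543, so 15714 and 15739 bases apart. Their lengths were 2144, 2164 and 2166 bases. They held 105, 98.3 and 101.3 scaled Mll-PTD tags against 8, 10 and 9 WT tags, so length and tags of both libraries were nearly the same in all 3.

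Shorter regions followed each of the 3 at like distances in the next places. The next region started 2691, 3070 and 3053 bases after the long one, with 781, 667 and 683 bases and 33, 32.3 and 30 scaled Mll-PTD tags. The one after that started 4225, 4237 and 4444 bases after it, with 769, 787 and 625 bases and 46.5, 46.5 and 39 tags. WT tags in these short regions were 3, 0 and 0 in the first place and 0, 3 and 2 in the second. After these the series differed in the number of regions. Before the next long region came 1 more region, at 68063699, in the first case and 3 more, at 68077093, 68078126 and 68079235, in the second. The third was followed only by a region of 1385 bases in this bin. Part of the spacing still held, since the region at 68079235 started 15536 bases after that at 68063699. These 2 held 27.8 and 21 scaled Mll-PTD tags, with 0 WT tags in both. Ahead of the first long region, that at 68047889 started 15810 bases before 68063699, and that at 68041739 started 15576 bases before 68057315. How reads with several matches were placed is not given in the sources used here. Whether the returning regions share sequence, and so tags, was not tested.

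**Figure D5:**
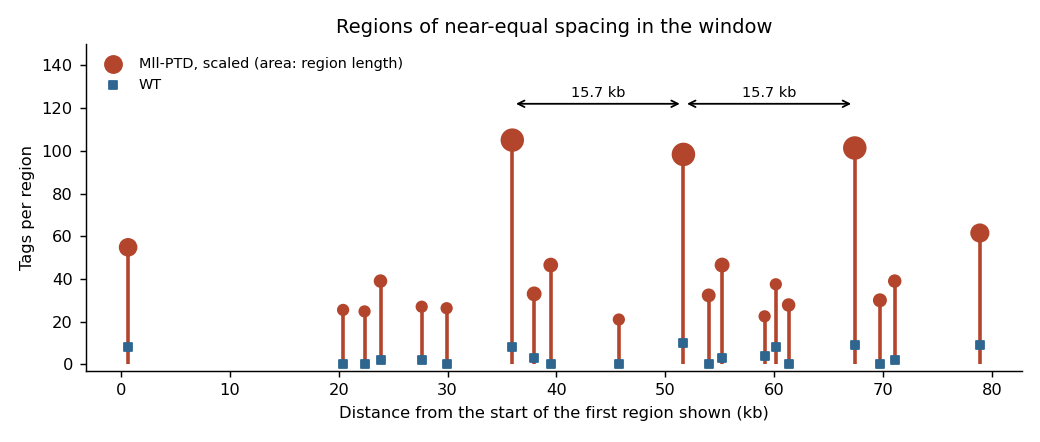
Tags per region in the fullest 100-kb bin of the window against the distance from its first region in kb; circles are scaled Mll-PTD tags (area grows with region length) and squares are WT tags. Long regions with 98.3 to 105 Mll-PTD tags return after 15714 and 15739 bases, each followed by shorter ones.

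Long members also came in short runs. Of 54 members of at least 1000 bases, 22 lay in 9 groups in which each started less than 12 kb after the one before, and 3 groups had 3 or 4 members, all in the second stretch. One of the other groups holds the last of the 3 long regions above. In the first of these, regions starting at 65786790, 65797593 and 65802560 were 10803 and 4967 bases apart, and a further member of the group started 4911 bases before them. In the next, those at 65899952, 65911456 and 65916504 were 11504 and 5048 apart. In the last, those at 66118022, 66128248 and 66132791 were 10226 and 4543 apart. All 3 groups thus held a wider step followed by one of about 5 kb. Ratios in them were not alike, since the region from 65802560 held 78 scaled Mll-PTD tags against 5 in WT and that from 65916504 held 61.5 against 13. Over all 9 groups the widest step, 11878 bases, lay close under the 12-kb limit. Runs of this kind were not counted outside the window. Whether they go beyond what its crowding alone gives was not tested.

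Beside other crowded stretches of the list, the window stood near one and apart from another in its ratio and its share without WT tags. A block of chromosome 14 from 42024278 to 44976544 held 546 regions with a ratio of summed tags of 8.67 (8.36 to 9), and 18.1% (15% to 21.6%) of them had no WT tag. Both intervals overlap those of the window. A block of chromosome 4 from 145046046 to 146999948 held 424 regions with a ratio of 6.79 (6.59 to 7), of which 6.60% (4.43% to 9.40%) had no WT tag. The chromosome 4 block had longer regions, 38.4% of them of at least 1000 bases, against 16.0% in the window, and 40.8% of them scored at least 40. The chromosome 14 block differed from the window here too. Of its regions, 27.3% (23.6% to 31.2%) had at least 1000 bases, against 12.3% to 20.4% for the window's interval. A score of at least 40 was reached by 22.7% (19.3% to 26.5%), against 8.87% to 16.1%. The blocks were not compared with the window within length classes. Crowding of regions thus came with a ratio above that of the whole list in the window and in the chromosome 14 block, and with one below it in the chromosome 4 block. With 1 library per genotype, none of these differences has a replicate check.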

How the data were processed

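H3K4me3 ChIP was sequenced in 1 WT and 1 Mll-PTD library, grouped by genotype from the labels. Bowtie 0.12.7, HOMER 4.7 and mm9 are named, per the submitters' processing notes. Per the file headers, HOMER took the Mll-PTD library as the signal and the WT library as its input, in histone style. It stitched peaks of 500 bases into regions, with a false discovery rate of 0.001, a threshold of 30 tags, at least 4-fold over WT and a Poisson p-value of at most 0.0001. Regions higher in WT and an input without immunoprecipitation were not analysed here.

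The deposited signal columns are Mll-PTD tags per library size, Mll-PTD tags scaled to WT, and WT tags, with 0.5 for none. The fold (ratio) and the p-value of each region are the authors'; the highest p-value of a member was 8.11e-08. Deposited scores are the height of the tallest peak and a clonal fold. The headers give 58083118 Mll-PTD tags, and the scaled columns gave about 43600000 for WT. Division of the scaled tags by 0.750 gave values within 0.1 of a whole number in 99.995% of regions.

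Ratios divide scaled Mll-PTD tags by WT tags, with exact Clopper-Pearson 95% intervals from whole tags; 0 WT tags were set against 3. Tags can be copies of 1 molecule, so these ranges cover counting error only. Shares of regions have exact binomial intervals that treat regions as independent, so they hold no spread between libraries. There is no replicate and no test. Regions were named by rule: the 8 with the most tags, the 6 longest, the 8 highest ratios with a WT tag and the 4 lowest (both among members at or above the median of 29.3 tags), the 6 with the most tags and no WT tag, and those at the edges. The members, lists and alternatives were chosen with earlier results of these data known. The functions were tested on simulated data. The work used scipy 1.17.1, pandas 2.3.3, numpy 2.4.6 and matplotlib 3.10.9 under Python 3.11.15.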

Additional observations from a re-analysis of the deposited data

How the results depend on the processing

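Of 33 alternatives to the window's counts, shares and medians, 16 were taken as the same. Counts had to stay within 1.5 times the main count, and shares within their exact interval. The median length had to stay equal. For the median log2 ratio the margin came from the width of the interval of the summed ratio, which is not an interval of that median. The 337 regions became 207 at 8-fold in the authors' deposited table, 175 at or above the list's median of Mll-PTD tags and 41 with a tallest peak of at least 40, fewer by construction. Their share of the list, 0.811%, became 1.06% at 8-fold and 0.557% at a score of at least 40. The 187 members of at least 8-fold became 102 at or above the list's median tags and 22 at a score of at least 40. With a pseudocount of 1 the log2 ratio had a median of 2.99, which became 2.23 with a pseudocount of 5, 3.20 with 0.5, 2.77 in regions with a WT tag, 2.77 in those of at least 1000 bases and 3.20 in those of 500 bases; its sign was fixed by the 4-fold limit. Members without WT tags, 21.1% of all, were 10.3% at or above the list's median tags, 3.70% in regions of at least 1000 bases and 30.2% in those of 500 bases. The median length of 500 bases was 716 at or above the list's median tags and 627 with regions under 1 kb apart merged. Leaving out the bin from 68 Mb (18.2% with no WT tag) or the fullest 100-kb bin (19.9%) was chosen after seeing the data. Of 54 values of the 27 named regions with another pseudocount, 48 stayed within the counting interval. The other 6 were the 6 named regions with no WT tag under a pseudocount of 5, where the log2 ratio of the region from 66603350 went from 6.25 to 4 and that from 67154923 from 6.12 to 3.87. With a pseudocount of 0.5 these 6 regions could not leave their intervals, which have no upper limit. No paired analysis was possible because there is 1 library of either genotype. The depth limits what single members show, at a median of 3 WT tags.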
